A study of Mus musculus with 4 samples.

Results

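The tallest autosomal peaks of a chromatin immunoprecipitation (ChIP-seq) experiment on the transcription factor ELF1 are described here: every deposited peak on chromosomes 1 to 19 whose pileup, the number of immunoprecipitated DNA fragments stacked at the peak's summit, was 10 or more in its own list. Members were thus chosen by pileup. There were 618 such members among the 11085 deposited peaks. The wild-type (WT) list gave 269 of its 5288 autosomal peaks and the Elf1 knockout (KO) list 349 of its 5117. The cells were bone-marrow-derived macrophages from WT or Elf1 KO mice, both genotypes treated with lipopolysaccharide (LPS), the bacterial cell wall component that induces inflammatory M1 activation, for 6 h. Each genotype had 1 immunoprecipitation (IP) with an ELF1 antibody and 1 input library, so no value has a replicate check, no test between genotypes was made, and every interval below covers counting error only. The labels give no sex, strain, number of mice or KO allele, and nothing in a peak list measures ELF1 itself, so the genotype rests on the labels.

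ELF1 is a member of the ETS family, factors that bind DNA through a winged helix domain at sites built around the core GGAA, often in promoters of housekeeping and immune genes. In macrophages the family's best known member is PU.1, which shares that core. Much of the mouse genome is repeated sequence: satellite arrays at centromeres, simple repeats such as runs of CA, retrotransposon copies scattered over all chromosomes, and gene families duplicated side by side. A short read from a repeated sequence fits many places equally well, so its mapped position is one choice among the copies.

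Members were sorted by the sequence under the peak, read from the GRCm38 reference. For every stretch of 31 bases in a peak (a 31-mer), perfect copies on either strand of the whole genome were counted. A peak was called high-copy where the median 31-mer of the peak had 1000 copies or more, low-copy where it had fewer but more than 1, and single-copy where it had 1, once major satellite, simple tandem repeats and genes of 7SL RNA, which helps direct secreted proteins to the endoplasmic reticulum, had been set aside. The sequences below were chosen to show the classes the results turn on. Each is GRCm38 sequence around the summit of the named member, written 5′ to 3′ on the plus strand unless stated.
GGAAT repeat, the WT member of highest fold, chr17:4626258-4626407, copies of GGAAT read on the other strand (ATTCC) in capitals: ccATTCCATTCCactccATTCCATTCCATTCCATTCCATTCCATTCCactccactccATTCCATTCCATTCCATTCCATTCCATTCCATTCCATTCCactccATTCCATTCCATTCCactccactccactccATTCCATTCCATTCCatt
CA/GT repeat, the WT member of highest fold in that class, chr14:99464825-99464974, the run in capitals: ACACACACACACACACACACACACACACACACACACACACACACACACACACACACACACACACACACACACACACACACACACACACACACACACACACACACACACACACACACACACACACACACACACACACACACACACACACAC
Major satellite, the WT chromosome 9 member of highest pileup, chr9:3000414-3000563, the 12-base mark of the class in capitals: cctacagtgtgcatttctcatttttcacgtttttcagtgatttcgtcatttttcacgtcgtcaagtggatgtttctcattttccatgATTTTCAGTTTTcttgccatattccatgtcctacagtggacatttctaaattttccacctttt

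The largest class is best seen as a pair. The WT member at chr1:118585079-118585377, in an intron of Clasp1, and the KO member at chr10:35680715-35681014, intergenic near Amd2 and written on the minus strand, lie on different chromosomes and share the stretch of 292 bases in capitals, the longest that any such pair of members of up to 300 bases had in common. The files used here name no repeat families, so the family was not assigned.
WT high-copy member on chromosome 1: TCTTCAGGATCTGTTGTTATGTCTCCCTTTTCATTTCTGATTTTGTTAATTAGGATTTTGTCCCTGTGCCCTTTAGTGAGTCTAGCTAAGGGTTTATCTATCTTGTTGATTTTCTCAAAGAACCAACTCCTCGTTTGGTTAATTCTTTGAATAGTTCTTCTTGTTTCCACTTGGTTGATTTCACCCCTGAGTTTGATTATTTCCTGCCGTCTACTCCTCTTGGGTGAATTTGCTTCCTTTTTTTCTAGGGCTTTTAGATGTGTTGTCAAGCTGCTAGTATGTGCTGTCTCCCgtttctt
KO high-copy member on chromosome 10: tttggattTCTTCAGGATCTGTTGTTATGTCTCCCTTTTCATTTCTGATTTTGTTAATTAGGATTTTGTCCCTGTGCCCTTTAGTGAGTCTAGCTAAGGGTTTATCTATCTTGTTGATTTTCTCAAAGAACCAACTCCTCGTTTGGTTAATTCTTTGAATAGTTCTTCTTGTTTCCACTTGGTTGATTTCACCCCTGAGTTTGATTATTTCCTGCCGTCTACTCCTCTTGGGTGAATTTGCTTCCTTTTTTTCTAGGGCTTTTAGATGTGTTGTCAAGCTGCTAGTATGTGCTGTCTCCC

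For contrast, a low-copy member from a duplicated gene region of chromosome 8 (chr8:20643116-20643225, capitals marking bases within 31-mers found more than once) and 2 single-copy members, at the promoter of Akr1c18 in WT (chr13:4151290-4151439) and upstream of Map3k7 in KO (chr4:31929370-31929519), are shown with no capitals in the single-copy ones.
Low-copy, WT, chromosome 8: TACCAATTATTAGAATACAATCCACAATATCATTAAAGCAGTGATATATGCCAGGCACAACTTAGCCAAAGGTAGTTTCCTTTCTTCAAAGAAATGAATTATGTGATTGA
Single-copy, WT, chromosome 13: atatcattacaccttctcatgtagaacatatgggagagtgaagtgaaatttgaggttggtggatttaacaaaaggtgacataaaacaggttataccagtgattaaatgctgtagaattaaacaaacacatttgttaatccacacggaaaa
Single-copy, KO, chromosome 4: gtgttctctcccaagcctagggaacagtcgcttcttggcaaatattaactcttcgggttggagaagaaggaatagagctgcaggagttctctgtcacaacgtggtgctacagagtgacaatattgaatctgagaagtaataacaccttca

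Most members lay on repeated sequence, in both genotypes. The median 31-mer occurred more than once in 226 of 269 WT members (84.0%, 95% exact interval 79.1 to 88.2) and in 305 of 349 KO members (87.4%, 83.5 to 90.7). Among autosomal peaks of pileup under 10 the shares were 13.7% of 5019 in WT and 17.4% of 4768 in KO. The reference's soft-masking, which marks interspersed and simple repeats, covered the whole peak in 66.9% of WT and 72.5% of KO members, against 11.4% and 14.8% of the peaks below the threshold. By class, the WT members were 13 major satellite, 25 CA/GT, 1 GGAAT, 1 TTAGGG, 2 other tandem repeats, 2 at 7SL genes, 135 high-copy, 49 low-copy and 41 single-copy. In the KO list they were 15, 24, 1, 2, 0, 2, 206, 56 and 43 in the same order.

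The classes separated by pileup and by local background, the fragment number the peak caller took as its reference at the summit, recovered from pileup and fold. Because pileup chose the members, their pileup, fold and background are given as description only. The lowest background of any autosomal peak was 1.00 in WT and 1.05 in KO. Members had a median background of 2.22 in WT (95% order-statistic interval 2.03 to 2.36) and 2.32 in KO (2.31 to 2.59), while peaks under the threshold sat near the minimum, at 1.01 and 1.05. Satellite members stood at the far end, with backgrounds of 1354 to 19804 in WT and 1395 to 19821 in KO. The mark of that class was taken from peaks of pileup 1000 or more, so their high pileups follow from its definition. CA/GT members had pileups of 12 to 235 in WT and 11 to 305 in KO over backgrounds of no more than 5.30. Members of fold 10 or more numbered 24 in WT, namely 21 CA/GT, the GGAAT repeat and both 7SL genes, and 22 in KO, namely 21 CA/GT and the GGAAT repeat. No member of the other classes reached that fold in either list.

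**Figure D1:**
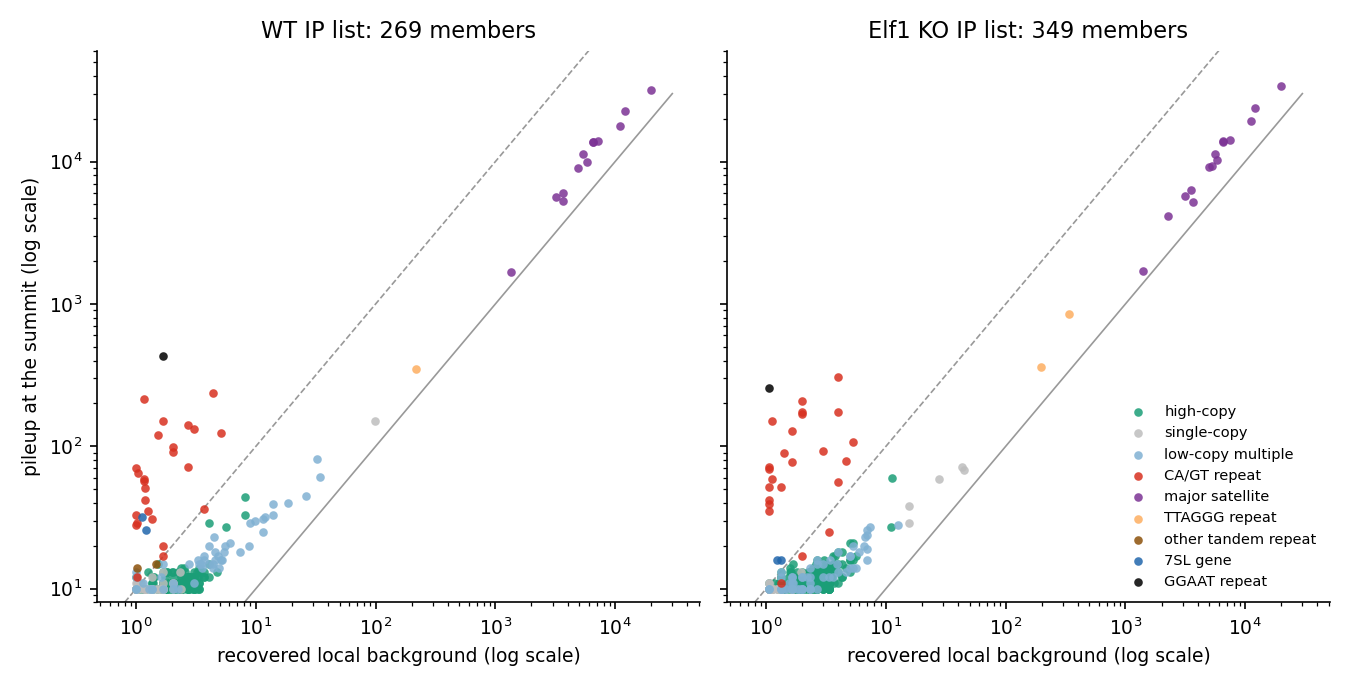
Pileup against recovered local background for each member, both on log scales, coloured by sequence class, with 1 panel per list. On the solid line pileup equals background, and on the dashed line it is 10 times the background. CA/GT members rise to pileups of 235 and 305 over backgrounds of at most 5.30, while major satellite members lie along the solid line at backgrounds of 1354 to 19821.

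The threshold fell where the makeup of the lists turned over. At pileup 5 high-copy sequence made up 5.26% of the 875 WT and 5.41% of the 739 KO autosomal peaks. At pileup 9, just outside the members, it made up 52 of 226 in WT (23.0%) and 79 of 249 in KO (31.7%). Just inside, at pileup 10, it was 54 of 93 (58.1%) and 63 of 115 (54.8%), and at 11 to 12 it was 57 of 70 (81.4%) and 84 of 101 (83.2%). Single-copy sequence went the other way, from 90.9% and 88.8% at pileup 5 to 33.3% and 30.4% at pileup 10. Folds on the 2 sides of the threshold overlapped: 2.70 to 5.0 at pileup 9 and 2.51 to 5.50 at pileup 10 in WT, and 2.63 to 4.88 and 2.55 to 5.37 in KO.

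**Figure D2:**
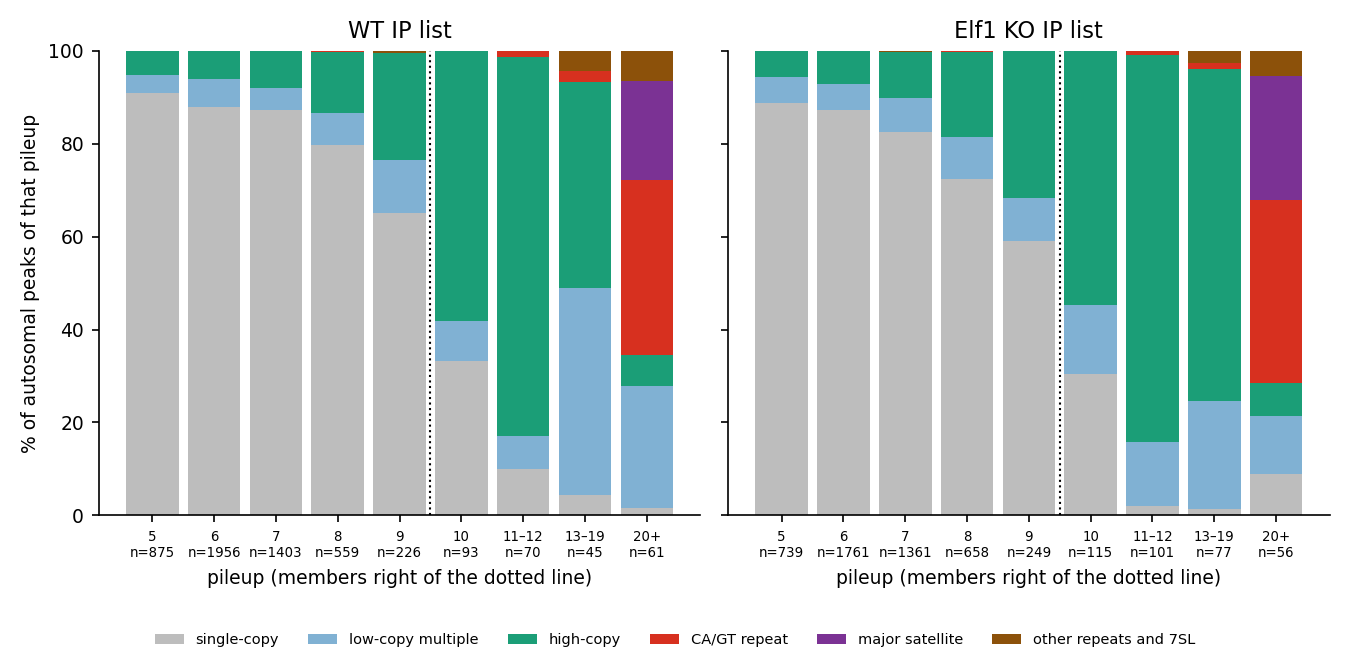
Share of autosomal peaks in each sequence class (stacked bars, %) by pileup, for each list, with the number of peaks under each bar. High-copy sequence goes from 5.26% (WT) and 5.41% (KO) at pileup 5 to 81.4% and 83.2% at 11 to 12, and CA/GT and satellite repeats make up most of the peaks of 20 or more.

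By position, few members recurred in the other genotype. In WT 44 of 269 members (16.4%, 12.1 to 21.3) overlapped a KO peak by at least 1 bp, where 1.04% of all autosomal WT peaks did. In KO 44 of 349 (12.6%, 9.31 to 16.6) overlapped a WT peak, against 1.07% of all autosomal KO peaks. Below the threshold 11 peaks of each list did so, 0.22% in WT and 0.23% in KO. Nearly all of the overlap came from tandem repeats and 7SL genes: 13 of 13 satellite, 24 of 25 CA/GT, the GGAAT, the TTAGGG and both 7SL members in WT, and 13 of 15, 23 of 24, 1 of 1, 1 of 2 and 2 of 2 in KO. High-copy members overlapped in 3 of 135 WT (2.22%, 0.46 to 6.36) and 4 of 206 KO cases (1.94%, 0.53 to 4.90). None of the 49 WT and 56 KO low-copy members overlapped, which allows shares of up to 6.12% and 5.36%, and none of the 41 and 43 single-copy members, which allows up to 7.32% and 6.98%. The authors' q value was below 0.05 in 146 WT members (54.3%) and 181 KO members (51.9%), where 5.16% and 5.73% of all autosomal peaks of each list passed. That value derives from the pileup, so nothing is read from it.

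Major satellite DNA is the array that makes up pericentromeric heterochromatin, of which the assembly holds only fragments. The 13 WT members, 2 of them on chromosome 2 and the others on chromosome 9, had the highest pileups of the list. The mark that defines the class was taken from peaks of pileup 1000 or more, so this rank is not a separate result. In an exon of Gm10800 on chromosome 2 the pileup was 31738 in WT and 34053 in KO, over backgrounds of 19804 and 19821, which gave folds of 1.60 and 1.72. At Gm10722 on chromosome 9 the pileups were 22714 and 23650 and the folds 1.88 and 1.97. Across the 13 paired loci the KO background was 0.961 to 1.04 times the WT one and the KO pileup 0.986 to 1.08 times. The median ratios, 1.004 for background and 1.018 for pileup, were the closest to equality of any class. The pileup ratio at the 1 shared TTAGGG locus, 1.023, lay within the satellite range. Counting error is relatively smaller at pileups this high, and its part in the closeness was not tested. The 2 KO satellite members without a WT partner lay in the same stretch of chromosome 9, near Gm10722 (pileup 9321) and Gm10719 (pileup 4176). TTAGGG, the telomere repeat, gave 1 shared member near Mrgprd on chromosome 7, with pileups of 351 in WT and 359 in KO, and 1 KO member near Gm27236 on chromosome 12, with a pileup of 853 over a background of 341.

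CA/GT repeats, runs of alternating CA or GT that mutate by slippage and vary in length, supplied the members of high fold. The highest in WT was at Gm49220 on chromosome 14, with a fold of 100.1 in WT and 69.6 in KO, from pileups of 216 and 207. The highest in KO was near AC114824.1 on chromosome 17, with folds of 47.9 in WT and 71.5 in KO. In the intron of Gm39317 on chromosome 9 the folds were 43.8 and 61.5. Neither genotype was uniformly higher. Over 24 paired loci the fold was higher in WT at 9 and in KO at 15, with medians of 25.3 and 27.1 and WT-to-KO ratios of 0.374 to 1.91. The KO pileup was the higher at 21 of these loci, equal at 1 and lower at 2, with a median KO pileup 1.21 times that of WT. These pileups are not scaled to depth, since read totals were not analysed here. The WT member without a KO partner had a fold of 16.0 (near Gm25044, chromosome 10) and the KO member without a WT partner one of 5.16 (near Gm4921, chromosome 10).

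The CA/GT members were a small selection of such runs in the genome. After joining runs up to 10 bases apart, the autosomes of GRCm38 hold 7959 runs of 100 to 199 bases, of which 1 held a WT member and the same 1 a KO member. Among 1379 runs of 200 to 299 bases, 6 held a WT and 5 a KO member, and of 447 of 300 to 399 bases, 5 held each. In the 359 runs of 400 bases or more, 13 held a WT member and 13 a KO member (3.62% in each list), and all 13 were common to both. Long runs were thus more often under a member than short ones, and still most long runs held none.

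At 3 other shared loci, 1 simple repeat and 2 genes of 7SL RNA, pileup and fold were higher in WT. Both values were also higher in WT at some shared satellite, CA/GT and high-copy loci, so this is not particular to these 3. The GGAAT repeat on chromosome 17, near AC173485.1, had the highest fold of either list, 159.6 in WT and 124.0 in KO, with pileups of 428 and 255. The GGAAT copies in the sequence printed above contain GGAA, the core that ETS factors recognise, and the units left in lower case do not. GGAA is short, and on either strand it also occurs in every other sequence printed above except the CA/GT one. Its frequency in the other classes is not given. Whether ELF1 bound this repeat was not tested. The peaks over the 7SL genes had folds of 15.5 and 12.3 in WT and 7.59 and 7.31 in KO. These genes have near-identical copies, so reads could be split or exchanged between them. Whether that bears on these values was not tested. With 1 library per genotype these differences have no replicate check.

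**Figure D3:**
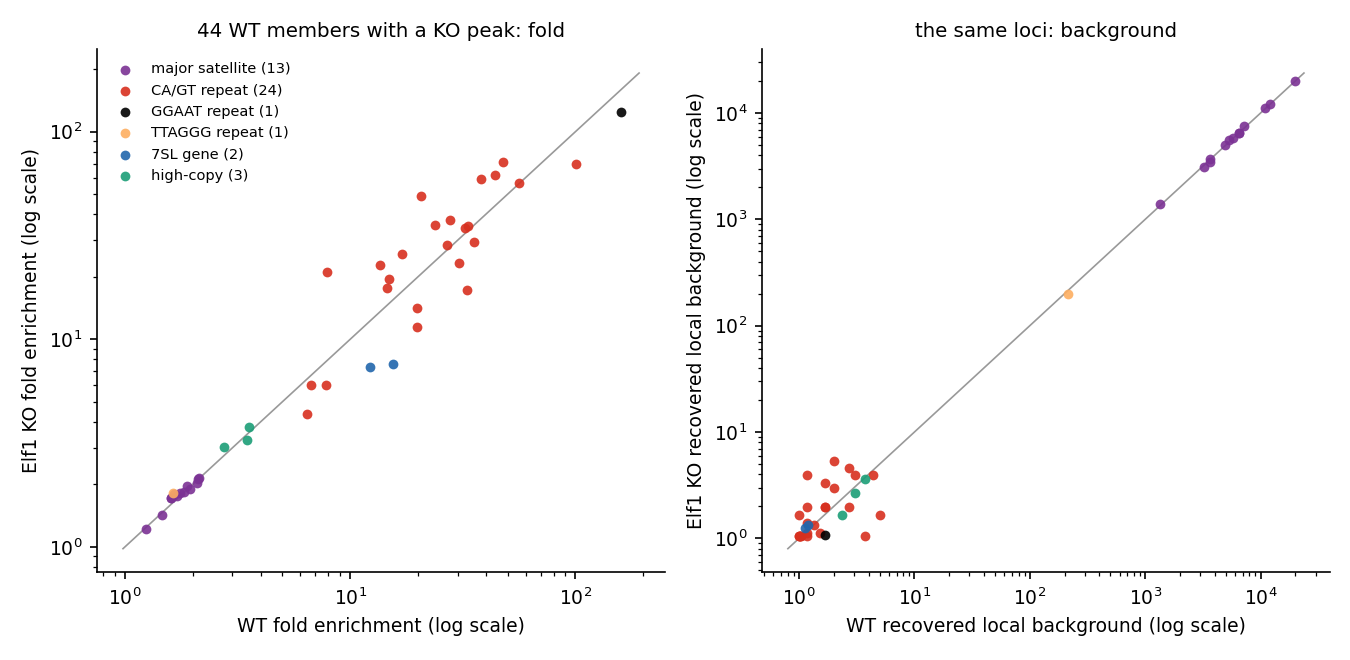
WT against Elf1 KO values at the 44 WT members that overlap a KO peak, fold on the left and recovered local background on the right, on log scales, with the line of equal values and the number of loci of each class. Satellite backgrounds lie on the line (ratios of 0.961 to 1.04), CA/GT folds scatter to both sides, and the GGAAT and 7SL folds lie on the WT side.

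High-copy members were more numerous in the KO list. There were 135 in WT and 206 in KO, a KO-to-WT ratio of 1.53, against 1.30 for all members together, with 80 more in KO. High-copy peaks of pileup under 10 numbered 402 and 498, a ratio of 1.24, while all peaks under the threshold gave 0.95. The ratio was 0.96 for CA/GT, 1.14 for low-copy and 1.05 for single-copy members. With 1 library per genotype, none of these ratios has an error and no difference was tested. The pileups were low, with a median of 11 in each list and a maximum of 44 in WT (near Gm47008 on chromosome 13) and 60 in KO (in an intron of Lsamp, near Gm27887 on chromosome 16). Folds ranged from 2.45 to 6.50 in WT and from 2.35 to 6.01 in KO.

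Although few positions were shared, nearly all high-copy members had a 31-mer in common with a member of the other list. Of 135 WT high-copy members 134 held a 31-mer that also occurred in a KO member, and 203 of 206 KO ones held a 31-mer of a WT member, in each case on another chromosome as well. When members were linked wherever they shared a 31-mer, 332 of the 341 fell into 1 chain of 133 WT and 199 KO members, with a median of 9120 genome copies and a median GC content of 38.6%. The pair printed above belongs to it. A chain needs only 1 shared 31-mer per link, so 2 of its members may have none in common, and the class was itself defined by 31-mers of many copies. Low-copy members shared a 31-mer with the other list in 8 of 49 WT and 9 of 56 KO cases. Since copy number defines both classes, the contrast is not read as a separate result. Sharing of this kind was not counted for high-copy peaks under the threshold.

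High-copy members were also concentrated on a few chromosomes. Chromosomes 1, 10, 11 and 12 held 116 of 135 in WT (85.9%, 78.9 to 91.3) and 181 of 206 in KO (87.9%, 82.6 to 92.0). The same chromosomes hold 23.1% of autosomal bases and 22.3% of the genome copies of these members' own 31-mers. They held 25.9% of the WT and 23.9% of the KO high-copy peaks of pileup under 10, and 13.4% and 19.6% of the members outside the high-copy class. Chromosome 1 alone had 52 WT and 84 KO high-copy members, chromosome 10 had 33 and 56, chromosome 11 had 6 and 15 and chromosome 12 had 25 and 26. Chromosome 3, with 8.47% of the 31-mer copies, had 0 and 1. In both deposited lists the autosomes are in text order, so these are the 4 that come first, before chromosome 13. On chromosome 11, 5 of the 6 WT and 14 of the 15 KO high-copy members lay below 60 Mb. The share of other peaks or of 31-mer copies below that position was not computed, so nothing is read from these counts. Leaving the 4 chromosomes out reduced the members to 135 in WT and 140 in KO, and the high-copy share from 50.2% to 14.1% in WT and from 59.0% to 17.9% in KO.

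Up to pileups of 11 to 12 the concentration was higher at each higher pileup. Of high-copy WT peaks with pileups of 5, 6, 7, 8 and 9, the share on the same 4 chromosomes was 8.70%, 11.8%, 24.3%, 39.2% and 57.7%. It was 83.3% at pileup 10, 93.0% at 11 to 12 and 90.0% (18 of 20) at 13 to 19. In KO the share was 2.50%, 12.1%, 12.6%, 30.8% and 62.0% from 5 to 9, then 73.0% at 10, 92.9% at 11 to 12 and 100% (55 of 55) at 13 to 19. Among high-copy members of 20 or more it was 0 of 4 in WT and 2 of 4 in KO. The grouping of these chromosomes was chosen after their counts were seen, and what set it was not tested.

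**Figure D4:**
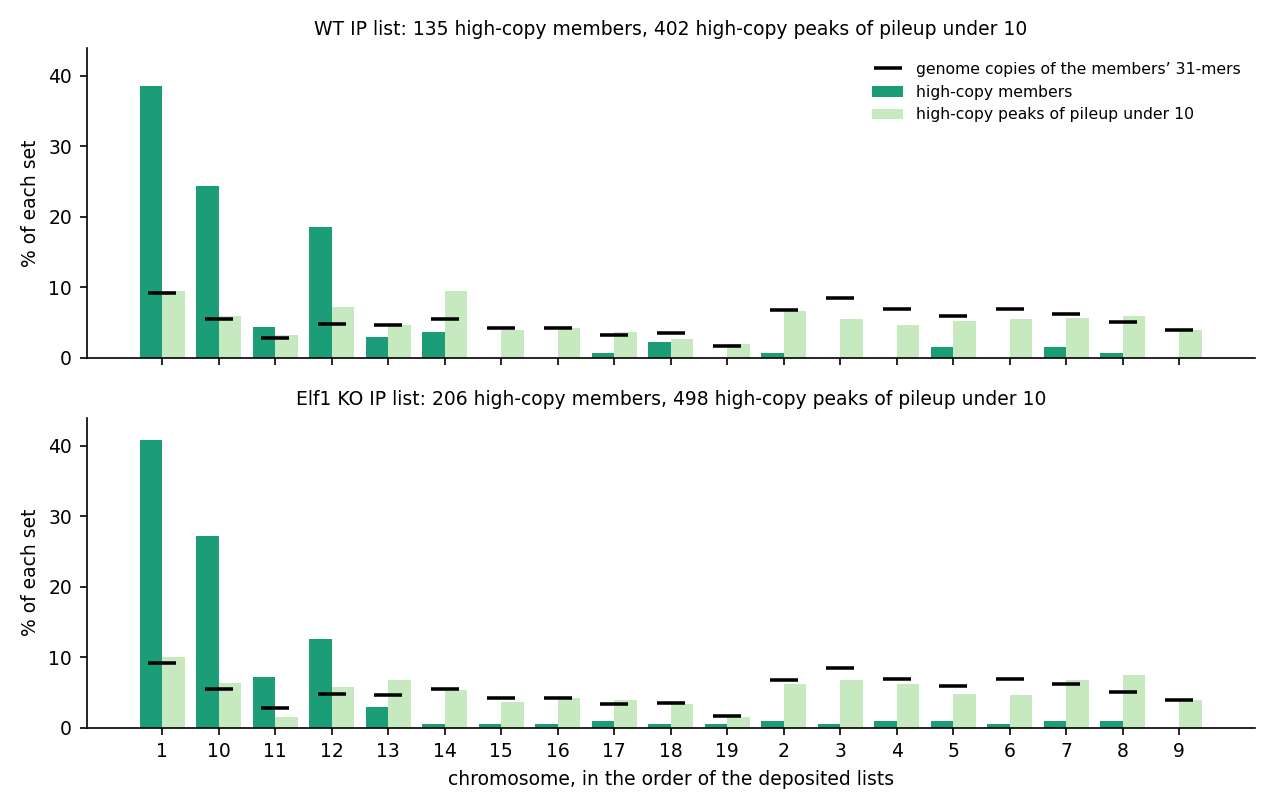
Share of high-copy members (dark bars) and of high-copy peaks of pileup under 10 (light bars) on each autosome, in %, with the share of genome copies of the members' 31-mers as black dashes, for each list, in the order of the deposited files. Chromosomes 1, 10, 11 and 12 hold 85.9% (WT) and 87.9% (KO) of the members against 22.3% of the copies.

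Many low-copy members, on sequence with a handful of copies, lay in regions of duplicated genes. Of 49 WT members 35 lay in clusters of at least 3 low-copy members of either list linked at up to 500 kb, and of 56 KO members 36 did. Such clusters were not counted for the 280 WT and 326 KO low-copy peaks under the threshold. These counts are therefore not read as a trait of the members. The largest, chr8:19685722-20695183 (1009 kb), held 18 WT and 13 KO members, around 4930467E23Rik, 6820431F20Rik and predicted genes such as Gm21119, with median 31-mer copies of 5 to 14 in WT. Pileups ran from 10 to 20 in WT and 12 to 20 in KO, and backgrounds from 1.00 to 5.49 and from 2.18 to 6.95. No peak of 1 list overlapped a peak of the other there, although the members interleave. Only 1.04% of all autosomal WT and 1.07% of KO peaks overlapped the other list, so the absence is not read as a trait of the region. On chr5:14906531-15662995 (756.5 kb), near Speer4e, a gene of a testis-expressed family, and predicted genes including Gm21847 and Gm9758, there were 13 WT and 6 KO members. Pileups there reached 61 in WT and 28 in KO, and the median background was 11.5 in WT and 6.84 in KO. Again no position was shared, as for nearly all autosomal peaks of either list.

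Some of the smaller clusters held members of both lists and others held KO members only. The region of zinc finger genes at chr4:147016722-147642070 held 2 members of each list. One of the WT members, within Zfp979 intron sequence, had the highest fold among WT members outside the tandem repeat and 7SL classes that lie nearest a gene with a standing name (7.0, pileup 13). A cluster at Mup-ps12, among the major urinary protein genes of chromosome 4, held 3 KO members and no WT one, with pileups of 10 to 12. The same stretch also held 1 WT and 5 KO peaks under the threshold, so the absence of a WT member depends on the cutoff and nothing is read from it. Outside the clusters, 2 KO low-copy members lay in the host gene Snhg14 on chromosome 7, a transcript that carries tandem arrays of small nucleolar RNAs. One of them, at Gm22046, had a pileup of 26 over a background of 6.95. Members lay within 10 kb of another of the same list in 17.8% of WT and 13.2% of KO cases, against 5.30% and 5.62% of the peaks under the threshold.

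**Figure D5:**
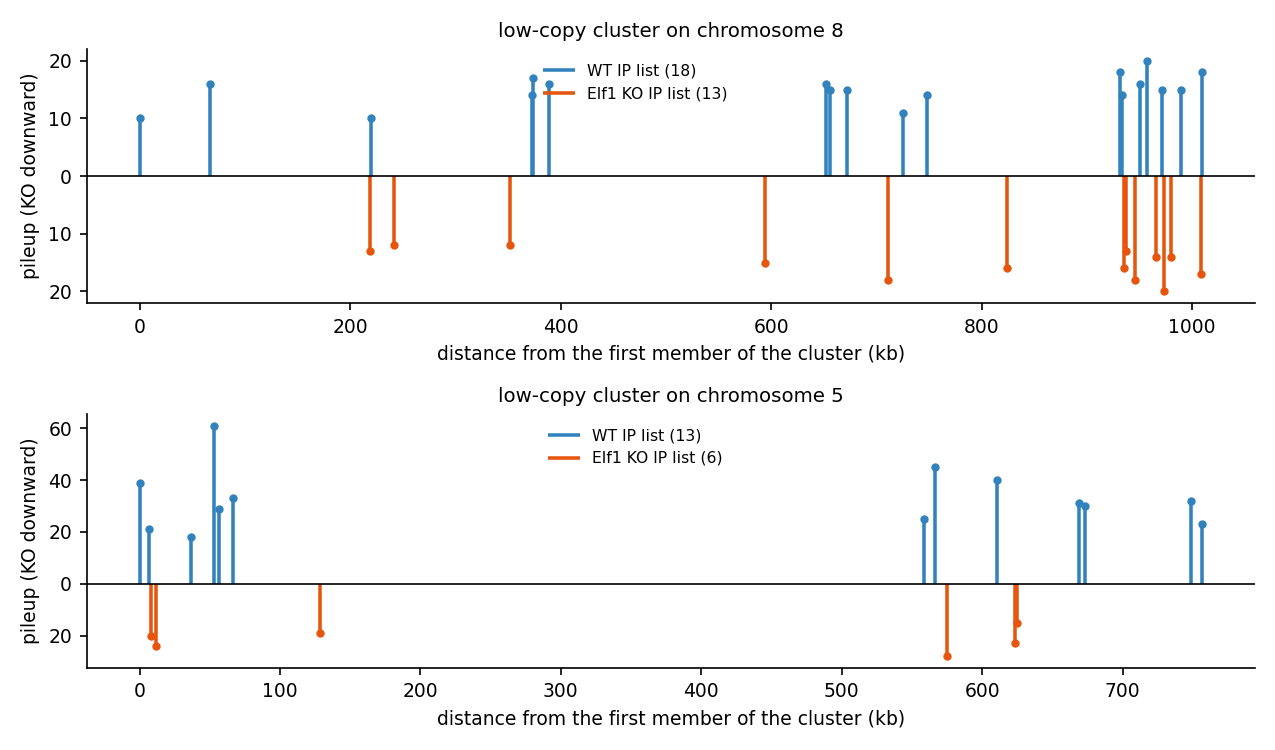
Low-copy members of the clusters on chromosomes 8 and 5, placed by distance in kb from the first member, with the pileup of WT members drawn upward and of Elf1 KO members downward. The 18 WT and 13 KO members on chromosome 8, and the 13 and 6 on chromosome 5, occupy the same regions at different positions. Overlap was rare in general, at 1.04% of all autosomal WT and 1.07% of KO peaks.

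Single-copy members, whose median 31-mer occurs once in the genome, numbered 41 in WT and 43 in KO. A background of at least 10 times the list's minimum marked 1 WT member, near Gm5466 on chromosome 2 (pileup 151, background 98.6), and 5 KO members. Among the KO ones, 2 lay in introns of Sfi1, a centrosome gene on chromosome 11, with pileups of 71 and 68 over backgrounds of 43.0 and 45.0. Another lay in Sp110, an interferon-induced nuclear body gene on chromosome 1, with a pileup of 38 over 15.6. The remaining 40 WT and 38 KO members had pileups of 10 to 13, with 31 and 35 of them at exactly 10. None overlapped the other list, where 1.04% of all autosomal WT and 1.07% of KO peaks did, so nothing about these members is read from it. The nearest peak of the other list was a median of 132 kb away in WT and 119 kb in KO. These distances were not compared with those of other peaks.

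In WT 4 of 41 single-copy members were promoter peaks (9.76%, 2.72 to 23.1), against 2.82% of the 4331 single-copy WT peaks under the threshold. They lay at Akr1c18, a progesterone-inactivating dehydrogenase, and at Gm9733, Gm12862 and Gm24105. In KO 0 of 43 were, which allows up to 6.98%, against 2.44% of 3937. Akr1c18 had a pileup of 10 and a fold of 5.50, the highest that a pileup of 10 over the WT minimum background gives, with the midpoint at -731 bp from the start site. Others in WT lay near the odorant receptor genes Olfr267 (fold 5.53, pileup 12) and Olfr881 (5.72, pileup 11) and near Eml6, a microtubule-associated protein gene (5.47, pileup 10). In KO single-copy members lay in introns of Cntn4, a neuronal adhesion gene (fold 5.86, pileup 11), and Gpc6, a glypican gene (5.29, pileup 10), and near Kcnt2, a potassium channel gene (5.19, pileup 10). Those near Map3k7 and the pseudogenes Cyp3a61-ps1 and Anp32-ps each had a fold of 5.37 at pileup 10. A difference of 1 fragment would take those at 10 out of the set.

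Gene annotation followed the rest of each list more closely than sequence did. Intergenic sequence held 155 WT members (57.6%, 51.5 to 63.6) and 201 KO members (57.6%, 52.2 to 62.8), against 56.7% and 57.6% of the peaks under the threshold. Introns held 92 (34.2%) and 126 (36.1%), against 38.5% and 38.0%. Promoters, which in the authors' annotation reach to about 2 kb upstream (peak midpoints from -2069 to 67 bp), held 15 in each list, 5.58% in WT (3.15 to 9.03) and 4.30% in KO (2.43 to 6.99), against 2.65% and 2.33%. Of those, 6 WT and 7 KO members were satellite fragments at predicted genes such as Gm10722, Gm11168 and Gm10717, and 2 in each list were the 7SL genes. Exons held 5 and 7 members and 3′ untranslated regions 2 and 0. The widths had medians of 259 bp in WT (252 to 269) and 262 bp in KO (254 to 270), against 237 and 244 bp below the threshold.

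Few members lay near genes of the macrophage response, and few peaks of either list did. The 249 genes looked up, in 11 lists, covered LPS, TLR4 and NF-kB signalling, inflammatory effectors, the macrophage lineage, the ETS family, interferon response and marker genes of neurons, stroma, erythroid cells, neutrophils and both lymphocyte lineages. As nearest or host gene they occurred at 0 WT and 2 KO members (0.57%), and at 19 WT (0.36%) and 17 KO (0.33%) autosomal peaks in all, so nothing about the members is read from these counts. The KO ones were Map3k7, which encodes the kinase TAK1 of LPS signalling, with a single-copy member of pileup 10 and fold 5.37 at -34676 bp from the start site, and Themis, a T cell development gene, with a high-copy member of pileup 14 in an intron. Neither was a promoter peak. The ETS site CCGGAAGT, searched on both strands within 100 bp of the summit, was in none of the 269 WT members, which allows a share of up to 1.12%, and none of the 349 KO members, which allows up to 0.86%. It was near 7 of 5019 WT and 3 of 4768 KO peaks under the threshold. No match says only that these letters are not in those windows.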

How the data were processed

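ELF1 ChIP-seq peak lists of 2 IP libraries, 1 WT and 1 Elf1 KO, were analysed; samples were grouped by their titles. Reads and inputs were left out. The series' design text names Trimmomatic 0.36 for read filtering, Bowtie2 for mapping to GRCm38 and SAMtools rmdup for PCR duplicates. Which program called and annotated the peaks, and at what threshold, is not given in the sources used here. Per the file headers, the deposited values of a peak are its width, summit pileup (a signal), fold enrichment (a ratio), −log10 p and −log10 q, with gene features and a nearest gene. Library depth is unknown, so precision is given only as counting error. Duplicate removal caps identical fragments, and reads from repeats are placed at one of several matching sites or filtered, depending on settings not given.

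The local background was recovered as (pileup + 1)/fold − 1. In 100% of peaks tested (5514 of 5526 in WT, 5544 of 5559 in KO), a Poisson tail at that background gave the deposited −log10 p to within 0.01. Backgrounds of the remaining peaks were not checked in this way, and which peaks those are is not given here. Where the authors list several features for a peak, promoter took precedence, then untranslated regions (5′ before 3′), exon, intron and last intergenic. All nearest genes of members were found in GENCODE M21 by identifier. Tandem repeat classes needed runs over 50% of the peak, and major satellite a 12-base mark, AAAACTGAAAAT or its reverse complement, taken as the commonest 12-mer of the 28 autosomal peaks of pileup 1000 or more, all of which held it. Counts of 31-mers and intervals (exact Clopper-Pearson and order-statistic, 95%) were computed in Python 3 with numba and scipy and tested on simulated data. The limit for a count of 0 is 3 counts of the total.

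Members and lists were chosen with earlier results of these data known, and the copy classes, the clusters and the grouping of chromosomes 1, 10, 11 and 12 after values were seen. Named genes followed a rule: in each list the 10 members of highest fold and of highest pileup, the 10 of highest fold in promoters, untranslated regions and exons, the 10 of highest fold near genes with standing names outside the tandem repeat and 7SL classes, members overlapping the other list outside those classes, and members near listed genes. Others named, such as those of clusters and of high background, were picked after their values were seen. Alternatives changed the pileup threshold, the q filter, the chromosomes, the overlap rule, the annotation order, the pseudocount and the repeat coverage. Only some of the members the naming rule gives are described in the text, and 1 of them and 1 sequence are not reported here.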

Additional observations from a re-analysis of the deposited data

Results flagged for a closer look

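On chromosome X, outside the autosomes described, the KO list had 23 peaks of pileup 10 or more and the WT list 6, of 434 and 97 deposited X peaks. On the mitochondrial genome the WT list had 8 such peaks, with folds of 1.25 to 1.62, and the KO list 0. On chromosome Y each list had 1 such peak, of 133 deposited Y peaks in WT and 8 in KO. None of these differences was tested.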

How the results depend on the processing

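Of 173 values recomputed under alternatives, 100 stayed within the interval of the reported value (counts within 1.5 times) and 73 did not, most of them where the set itself was redrawn. With members from pileup 8 there were 1054 in WT and 1256 in KO. Of these 4.46% and 3.90% overlapped the other list, 24.8% and 32.2% were high-copy, 2.47% and 2.07% CA/GT, and 6.93% and 6.05% lay within 10 kb of another. Median widths were then 246.5 and 253 bp, median backgrounds 1.18 and 1.32, ETS sites 1 and 1, and members near listed genes 1 and 6. From pileup 15 there were 81 and 88, of which 49.4% and 45.5% overlapped, 49.4% and 47.7% were intergenic, 7.41% and 25% high-copy, 29.6% and 26.1% CA/GT, and 34.6% and 25% clustered. Median backgrounds were then 4.48 and 4.47, the KO median width 272 bp, and listed genes in KO 0. With the authors' q below 0.05 there were 146 and 181, of which 28.1% and 22.7% overlapped, 30.1% and 40.9% were high-copy and 17.1% and 13.3% CA/GT, with median backgrounds of 1.5 and 1.60 and 1 listed gene in KO. The share of high-copy members on chromosomes 1, 10, 11 and 12 was 67.0% in WT and 65.9% in KO from pileup 8, 33.3% of 6 in WT from pileup 15, and 63.6% and 77.0% with q below 0.05. Outside the major satellite 12.1% and 9.28% overlapped, 9.58% of KO members clustered and 2.40% of KO members were in promoters. Promoter shares were 2.85% in WT from pileup 8, 12.3% and 13.6% from pileup 15, and 10.3% and 7.18% with q below 0.05. Single-copy shares were 60.2% and 53.0%, 1.23% and 5.68%, and 21.9% and 19.3% under the same settings. Without a pseudocount the median backgrounds were 3.00 and 3.07. Without chromosomes 1, 10, 11 and 12, an alternative chosen after seeing the data, 135 and 140 members were left, 25.2% and 24.3% overlapping and 14.1% and 17.9% high-copy. The overlap rules, the annotation order, all chromosomes, 30% repeat coverage and a copy threshold of 100 (also chosen after seeing the data) moved none of the values recomputed under them.

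No paired analysis was possible because each genotype has 1 IP library. Leaving out a replicate was not possible for the same reason. Read depth, mapping quality and the handling of reads with several matches are not in the files used here, so a difference in depth and a difference in enrichment cannot be told apart. A member at pileup 10 rests on 10 fragments.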
